A study of Mus musculus with 105 samples.

Results

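The genes described here are the 8 that write, maintain and remove DNA methylation in the mouse: the maintenance pair Dnmt1 and Uhrf1, the de novo methyltransferase genes Dnmt3a and Dnmt3b with their partner Dnmt3l, and the dioxygenase genes Tet1, Tet2 and Tet3. They were chosen by name, as the rows of a gene count table whose Ensembl identifiers carry these symbols in GENCODE, and all 8 were found among 53379 gene identifiers. Their poly(A) RNA counts come from 4 mouse tumour lines of C57BL/6 origin: B16 melanoma, its derivative B16OVA, MCA101OVA fibrosarcoma and MC38 colon adenocarcinoma. Each line was cultured under puromycin as Setdb1 knockout (KO) cells, as Ctrl cells and as WT cells, with 3 libraries per group in B16, MCA101OVA and MC38 and 6 per group in B16OVA. The labels do not say what the Ctrl cells carry, nor whether a KO line is 1 clone. The references were 5 libraries of melanocytes grown from newborn C57BL/6J skin and 48 libraries of 12 tissues from WT female mice whose age is not given, 4 libraries per tissue: thymus, lymph node (LN), spleen, ovary, skin, colon, stomach, lung, brain, kidney, heart and liver. The remaining 7 libraries are single WT tumour-line libraries with another code in the library name, B176, and entered no test. Such a code is called a run here, and the library names do not say what it stands for.

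In mammalian cells a methyl group on cytosine, mostly at CpG dinucleotides, is copied to the new strand after replication by Dnmt1, which Uhrf1 brings to hemimethylated sites. Dnmt3a and Dnmt3b place new methyl groups, and Dnmt3l, which has no catalytic activity of its own, stimulates them, above all in germ cells. The Tet enzymes oxidise 5-methylcytosine, after which the base is lost at replication or removed by base excision repair. Setdb1 methylates histone H3 at lysine 9 and silences transposable elements, and DNA methylation and H3K9 methylation often mark the same silent elements and germline genes.

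Library totals were 17.2 to 50.4 in the lines, 19.9 to 30.6 in melanocytes and 53.6 to 254 in tissues, in units of 1000000 counts. Levels are given as CPM, counts per 1000000 counts of the library. No pair among 154 within-group pairs was identical, and the labels do not say that replicates came from separate cultures, so p-values may measure technical spread alone. Marker genes of the own tissue were higher than in every other tissue for 11 of 12 tissues, with LN markers overlapping spleen. B16 and B16OVA held melanocyte markers (13787 to 31673 CPM summed), MC38 of run D176 had the epithelial genes Epcam, Cdh1 and Krt19 below 0.1 CPM in mean, while the 5-gene epithelial list with Krt8 and Krt18 summed to 454 to 1926 CPM. MCA101OVA had the fibroblast genes Col1a2 and Thy1 below 0.1 CPM in mean, while the 5-gene fibroblast list summed to 47.6 to 588 CPM and the epithelial list to 854 to 1744 CPM. Fewer cells of a type and less RNA per cell cannot be told apart in these bulk libraries.

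Dnmt1 (ENSMUSG00000004099) lies on the minus strand of chr9:20907209-20959888 of GRCm38, Uhrf1 (ENSMUSG00000001228) on the plus strand of chr17:56303321-56323486, Dnmt3a (ENSMUSG00000020661) on the plus strand of chr12:3806007-3914443 and Dnmt3b (ENSMUSG00000027478) on the plus strand of chr2:153649450-153687730. Dnmt3l (ENSMUSG00000000730) is on the plus strand of chr10:78041947-78063622, Tet1 (ENSMUSG00000047146) on the minus strand of chr10:62804570-62908996, Tet2 (ENSMUSG00000040943) on the minus strand of chr3:133463679-133545139 and Tet3 (ENSMUSG00000034832) on the minus strand of chr6:83362373-83459084. The members fall into long and short genes by the union of their exons: Tet2, Tet3, Dnmt3a and Tet1 hold 16.9, 16.7, 16.6 and 15.5 kb, while Dnmt1, Dnmt3b, Uhrf1 and Dnmt3l hold 7.38, 5.11, 4.26 and 2.99 kb. Dnmt3l shares 67 exon bases with Aire, which runs on the other strand, and whether the counting used strand is not given in the sources used here.

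RefSeq promoter windows of 300 bases (GRCm38.p6, 250 before to 50 after a start) were matched for all 8 members, 15 windows in all. The words searched on both strands were CCAAT and the E2F word TTTNNCGC with C or G at each N. An E2F word was present in 2 member windows, the third start of Dnmt1 and the second start of Uhrf1, against 2.26% of 32851 windows of 27025 genes. CCAAT was present in 5 of the 15 member windows, against 37.4% of all windows. The stretches below are shown because Dnmt1 and Uhrf1 are the only members with an E2F word. Capitals mark the E2F and CCAAT matches on either strand, and in the Dnmt1 stretch the 2 CCAAT matches, 1 on each strand, overlap.
Dnmt1, chr9:20952832-20952861, minus strand: tcCCAATTGGtttccgcgcGCGCGAAAaag
Uhrf1, chr17:56304063-56304312, plus strand: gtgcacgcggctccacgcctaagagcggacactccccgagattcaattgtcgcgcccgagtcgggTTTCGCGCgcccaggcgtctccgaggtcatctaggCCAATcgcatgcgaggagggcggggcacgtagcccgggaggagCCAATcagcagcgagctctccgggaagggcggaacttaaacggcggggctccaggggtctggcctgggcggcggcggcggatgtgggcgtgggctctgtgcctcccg
A match is a description of the letters and not a bound site. The CpG count of the windows also differed among members: the Tet2 window held 57 CpG, a count reached by 0.152% of all windows, Dnmt3a windows 46, 47 and 18, the Dnmt3b window 30, the Tet3 window 22, the Tet1 window 17 and the Dnmt3l windows 3 to 6, against a median of 7 over all windows.

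In tissues, the maintenance genes were highest in the thymus. Uhrf1 had 279, 372, 229 and 342.2 CPM in thymus, 47.7, 43.95, 130 and 119 CPM in spleen and 21.02, 53.7, 41.7 and 74.1 CPM in ovary. At the other end it had 0.992, 1.25, 1.52 and 2.19 CPM in heart, 0.631, 0.800, 0.510 and 2.09 CPM in liver and 0.913, 0.875, 0.835 and 0.783 CPM in brain. All 4 thymus libraries lay above every other tissue library, while liver overlapped both heart and brain, and brain lay below heart. LN, colon and skin averaged 37.0, 36.9 and 30.3 CPM and overlapped each other, stomach averaged 18.5 CPM, lung 7.93 CPM and kidney 3.44 CPM. The thymus value was 4.47 ± 0.19 higher on the log2 scale than the mean of the other 11 tissues (SE, n = 4 libraries per tissue, edgeR quasi-likelihood, adjusted p = 1.44e-22), and the brain value 4.54 ± 0.40 lower (log2 fold -4.54, adjusted p = 4.81e-13).

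Dnmt1 had 300, 488, 279 and 413 CPM in thymus, 167, 199, 140 and 198 CPM in LN, 119, 152, 187 and 231 CPM in spleen and 79.4, 171, 123 and 191 CPM in ovary. It had 96.5, 84.7, 80.5 and 102 CPM in brain and 14.8, 15.4, 13.9 and 17.9 CPM in liver. Thymus stood above every other tissue library and liver below every other, and LN, spleen and ovary overlapped. Between them, skin averaged 114 CPM, lung 78.1 CPM, colon 76.2 CPM, stomach 43.6 CPM, kidney 32.8 CPM and heart 25.4 CPM. The pair therefore parted in brain, where Dnmt1 was 0.02 ± 0.13 (log2) from the mean of the other tissues (adjusted p = 0.993, edgeR) and Uhrf1 was the lowest of the 12. Per kilobase of exon union, Uhrf1 stood at 1.45 ± 0.12 times Dnmt1 in thymus (SD, n = 4) and at 0.0164 ± 0.0022 times Dnmt1 in brain.

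The de novo gene Dnmt3a did not share this order. It had 172, 201, 152 and 203 CPM in thymus, 167, 171, 152 and 184 CPM in brain, 95.5, 146, 115 and 170 CPM in ovary and 22.7, 25.1, 23.5 and 28.2 CPM in liver. Thymus and brain overlapped at the top, and LN (mean 125 CPM) and spleen (mean 109 CPM) overlapped ovary. Lung, heart, skin, kidney and colon lay between 55.8 and 72.6 CPM in mean and each overlapped its neighbour, and stomach averaged 37.9 CPM. In heart, Dnmt3a made up 50.5% of the summed Dnmt1, Dnmt3a and Dnmt3b level per kilobase, and Dnmt1 44.1%, the reverse of the order in thymus, where Dnmt3a held 17.5% and Dnmt1 78.5%.

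Dnmt3b was low everywhere. It had 11.2, 15.8, 11.49 and 13.3 CPM in thymus, 12.7, 12.1, 10.4 and 12.1 CPM in LN, 9.93, 12.4, 10.4 and 11.1 CPM in spleen and 7.68, 11.52, 8.73 and 14.5 CPM in ovary, which overlapped each other. The lowest tissue was heart with 2.22, 1.70, 2.46 and 2.20 CPM, which lay below the neighbouring stomach. Liver had 6.91, 5.75, 4.07 and 5.41 CPM of Dnmt3b, and this was the single member called higher there: its share of the summed Dnmt1, Dnmt3a and Dnmt3b level per kilobase was 23.1% in liver and 2.88% in brain.

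Dnmt3l reached 1 CPM in all 4 libraries of ovary and thymus alone. It had 3.08, 2.74, 2.01 and 2.10 CPM in ovary, 1.52, 1.12, 1.51 and 1.12 CPM in thymus and 0.407, 0.479, 0.900 and 0.549 CPM in stomach, and ovary lay above thymus without overlap. The oocyte marker list was at 63.9 to 282 CPM summed in ovary. Aire, the gene on the opposite strand, was at 58.3 to 67.5 CPM in thymus and 1.16 to 1.75 CPM in ovary, and its part in the Dnmt3l value was not tested. Kidney had 0.220, 3.50, 0.0306 and 0.150 CPM of Dnmt3l. The second kidney library also held the adrenal genes Star at 1659 CPM, Cyp11b1 at 1351 CPM and Chga at 288 CPM, which were at most 1.64 CPM in the other kidney libraries. The log2 fold of kidney over the other tissues, 2.33 with it (adjusted p = 2.83e-05, edgeR), was -0.31 without it (adjusted p = 0.696).

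Among the erasers, Tet1 had the pattern nearest to Dnmt3a. Tet1 had 18.8, 25.4, 24.6 and 30.2 CPM in thymus, 22.7, 21.3, 20.2 and 27.6 CPM in brain, 9.58, 17.6, 15.5 and 21.8 CPM in ovary and 6.35, 7.91, 9.66 and 7.18 CPM in heart. In liver it had 0.192, 0.192, 0.259 and 0.237 CPM. Thymus and brain overlapped, and every liver library lay below every other tissue library. Tet1 was higher than the mean of the other tissues by 1.98 ± 0.11 in brain (log2, SE; adjusted p = 3.35e-19), 1.86 ± 0.11 in thymus (adjusted p = 7.61e-18), 1.23 ± 0.12 in heart (adjusted p = 1.17e-11) and 1.08 ± 0.12 in ovary (adjusted p = 6.47e-10), and its liver log2 fold was -3.89 ± 0.19 (adjusted p = 1.11e-20, edgeR). The other tissues ranged in mean from LN at 9.20 CPM to stomach at 2.52 CPM.

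Tet2 varied least on library-total CPM, a scale taken up below. Its highest tissue mean was 3.37 times its lowest, against 7.48 for Tet3 and 112 for Tet1. It had 62.6, 57.5, 55.8 and 48.97 CPM in LN, 51.1, 57.1, 57.2 and 47.4 CPM in kidney and 21.6, 16.7, 11.2 and 17.2 CPM in liver. LN, kidney, skin (mean 47.4 CPM) and spleen (mean 47.3 CPM) overlapped each other. Kidney was the tissue with the larger of its 2 called increases, 0.86 ± 0.13 on the log2 scale (SE, adjusted p = 1.90e-07, edgeR), the other being LN at 0.36 ± 0.13 (adjusted p = 0.0149). The LN call was lost when library-number set 2, described below, was left out (log2 fold 0.34, adjusted p = 0.0679, edgeR). Thymus, where 7 members were higher, was lower in Tet2 by a log2 fold of -0.53 ± 0.14 (adjusted p = 0.00127), with 28.1, 38.3, 27.5 and 36.5 CPM.

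Tet3 had 188, 204, 147 and 209 CPM in thymus, 209, 197, 169 and 157 CPM in LN and 166, 146, 171 and 151 CPM in skin, which overlapped. Its lowest tissues were kidney with 31.0, 40.7, 38.9 and 44.5 CPM, heart with 30.7, 18.3, 35.3 and 26.9 CPM and liver with 25.0, 26.5, 22.2 and 26.2 CPM. Heart overlapped both, and liver lay below kidney. Spleen, colon, ovary, lung and brain averaged between 90.9 and 142 CPM. Per kilobase, Tet3 was the most abundant Tet gene in 11 of the 12 tissues, from 45.2% of the summed Tet level in heart to 75.96% in thymus. Kidney was the exception, with 39.9% Tet3 and 54.4% Tet2. Tet1 held 16.1% of the sum in brain, 14.1% in heart, 10.9% in thymus and 10.5% in ovary, and at most 5.67% in mean in each of the other 8 tissues.

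**Figure D1:**
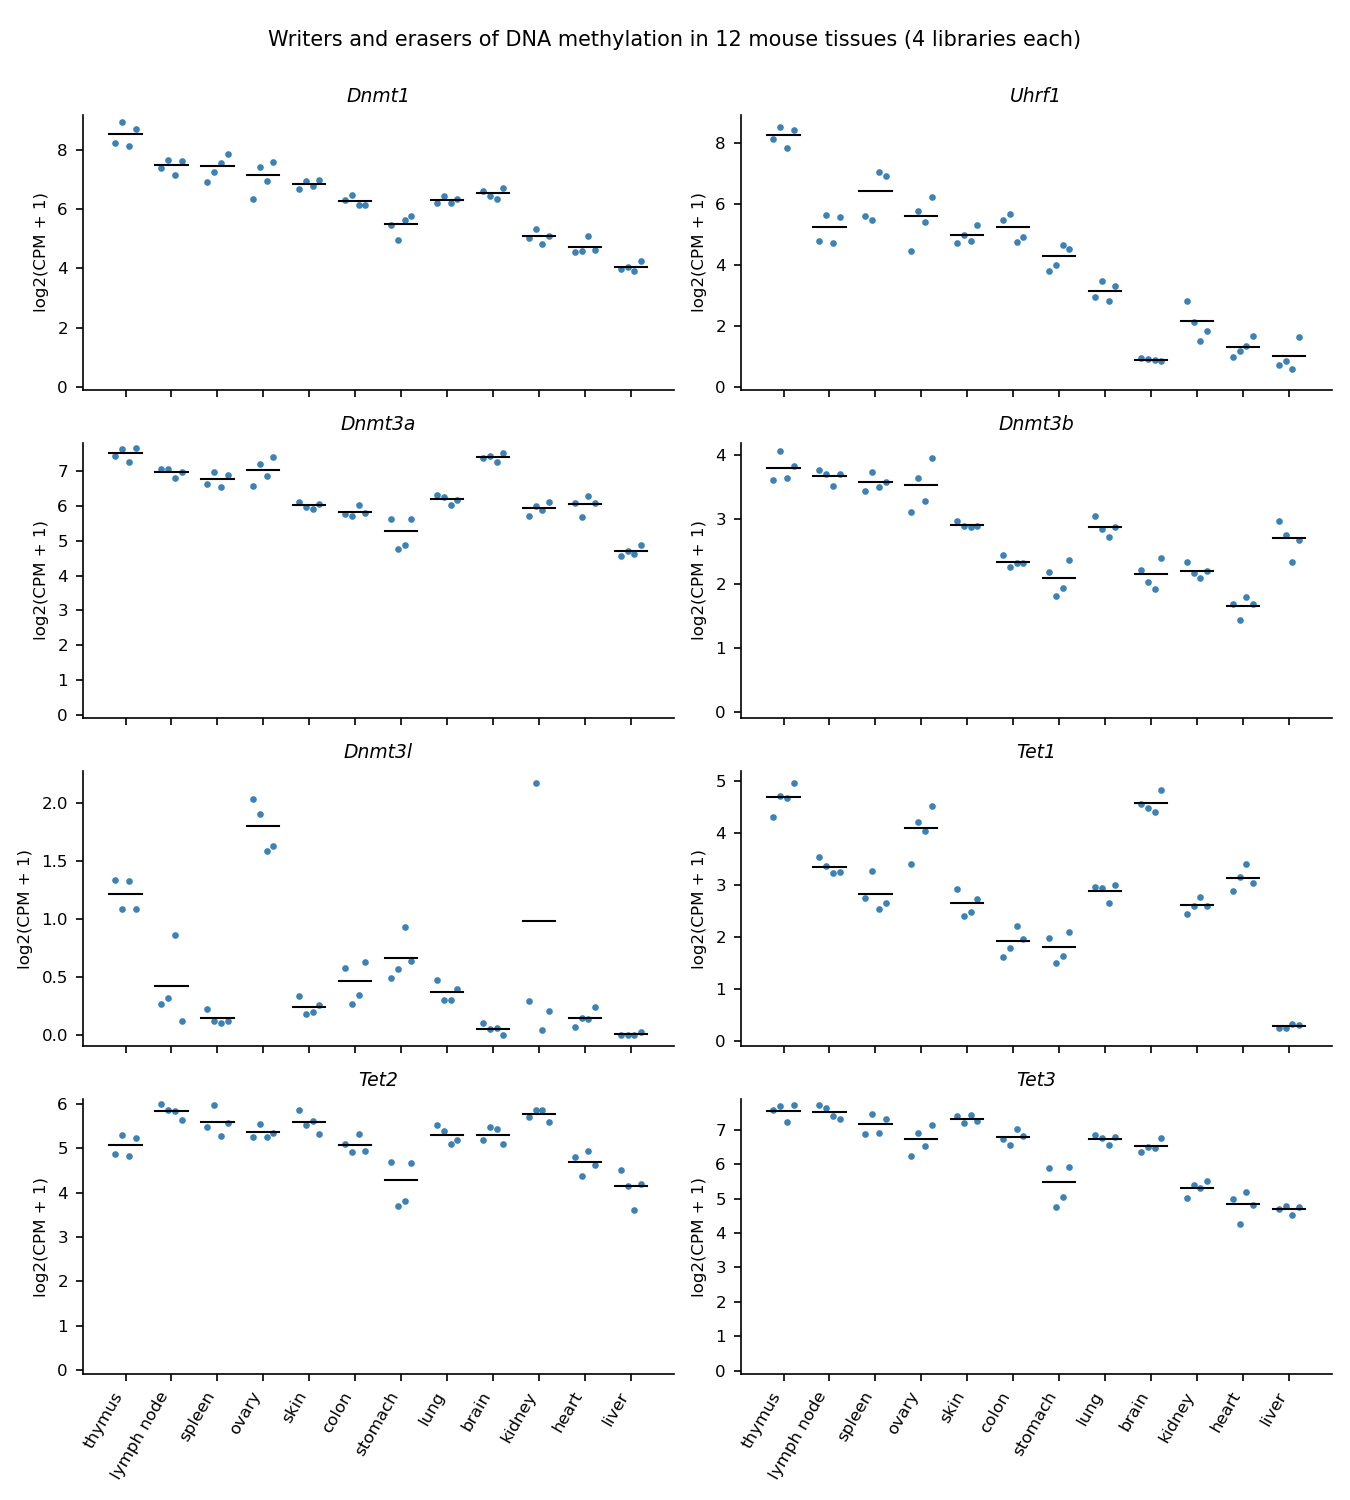
Level of each of the 8 genes in 12 tissues, as log2(CPM + 1) on the y axis, with each dot 1 library (4 per tissue) and the black bar the log2 of the mean CPM plus 1. Uhrf1 spans from 305.7 CPM in mean in thymus to 0.851 CPM in brain, Tet1 and Dnmt3a are high in thymus and brain, and Tet2 varies least.

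Every member differed among the 12 tissues (edgeR quasi-likelihood F test over all tissues), as did 99.5% of the 26242 genes tested, so this says nothing particular to them. Set against the mean of the other 11 tissues, the members gave 37 higher and 32 lower calls and 27 without a call among 96. Thymus had 7 members higher (39.9% of all genes were) and 1 lower (29.1%), LN 7 higher (32.6%) and none lower (29%), ovary 6 higher (32.4%) and none lower (23.2%), and spleen 4 higher (34.1%) and 1 lower (31%). Brain had 2 higher (36.2%) and 3 lower (35%), heart 2 higher (28.5%) and 4 lower (31.2%), kidney 2 higher (31.4%) and 4 lower (25.6%), and colon 2 higher (30.5%) and 3 lower (24%). Skin had 2 higher (30.4%) and 2 lower (27.4%), stomach 2 higher (33.2%) and 6 lower (26.2%), lung none higher (31.8%) and 2 lower (25.2%), and liver 1 higher (28.5%) and 6 lower (35.7%). Leaving out 1 library-number set, a block of consecutive library numbers with 1 library of each tissue, moved several of them. LN kept 6 higher without set 1, which lost Tet1, and 5 without set 2, which lost Tet1 and Tet2. Ovary kept 3 higher without set 4, which lost Dnmt1, Dnmt3a and Dnmt3b, and 4 higher without set 2. Colon kept 1 higher without set 3 or set 4, stomach 1 higher without set 3 and kidney 1 higher without set 2. Skin kept 1 lower without set 2, lung 1 lower without set 4 and brain 2 lower without set 4. Spleen kept none lower without set 1 or set 4. With the length slope of the library, a measure described below, as covariate, stomach kept none of its 8 calls (adjusted p from 0.177, edgeR). Ovary then kept 3 higher and LN 5 higher, with Tet1 and Tet2 no longer called in LN. Calls were gained as well under this covariate. Ovary had 2 lower (Tet2 and Tet3), lung 5 lower, brain 1 higher and 5 lower, and liver 2 higher and 4 lower. Skin then had 4 higher, heart 3, kidney 3 and spleen 5. With 8 members, these counts describe the members and were not tested against the background.

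The order of the tissues depends on the scale for some members. On CPM scaled by TMM factors, which ran from 0.458 to 1.49 in tissues, thymus stayed the highest in mean for Dnmt1 (282) and Uhrf1 (233), and ovary for Dnmt3l (1.79). The highest tissue became brain for Dnmt3a (149) and Tet1 (20.2), liver for Dnmt3b (11.46), kidney for Tet2 (60.5) and LN for Tet3 (143). The lowest tissue became stomach for Dnmt3a (49.8) and Tet2 (24.3), brain for Dnmt3b (3.03) and heart for Tet3 (43.2). On this scale Tet2 ran from 24.3 to 60.5 in mean and Tet3 from 43.2 to 143. The fitted folds use TMM throughout. A further measure moved with tissue: the slope of log2(CPM + 1) on log2 exon length over 15783 genes was 0.907 to 0.945 in brain, 0.246 to 0.278 in liver and 0.131 to 0.425 in stomach, against 0.411 to 0.722 in the other tissues, so that long genes took a larger share of the counts in brain. With this slope as a covariate, the brain log2 fold was -0.05 for Dnmt3a, -0.71 for Dnmt1, 1.01 for Tet1 and -4.29 for Uhrf1. A library property and the tissue's own use of long genes cannot be told apart in this slope.

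Over the 12 tissue means of log2(CPM + 1), which share library and depth, Uhrf1 had a Pearson r of 0.99 with the summed level of a 16-gene proliferation list, Dnmt1 0.86, Tet3 0.79, Dnmt3b 0.76, Dnmt3a 0.50 and Tet1 and Tet2 0.36 each. That list summed to 3735 CPM in thymus, 1998 in spleen, 839 in LN, 109 in brain, 90.1 in heart and 76.5 in liver. Among the members the closest pairs were Dnmt3a with Tet1 (r = 0.95) and Dnmt1 with Tet3 (r = 0.95), and the r of Uhrf1 with Tet1 was 0.33. Among 15809 genes the 3 most like Uhrf1 were Dlgap5 (r = 0.997), Kif11 and Kif18b, which encode mitotic spindle proteins. The genes most like Dnmt1 were Hnrnpa0 (0.991), Ccdc174 and Ddx39b, those most like Dnmt3a were Smarcd1 (0.985), Usp11 and Tia1, and those most like Dnmt3b were Zfp141 (0.949), Serpina3g and Twistnb. For Dnmt3l they were Swi5 (0.886), Tdrd5 and Dppa3, for Tet1 Bhlhb9 (0.979), Smarcd1 and Lsm14b, for Tet2 Smyd4 (0.935), AW549877 and Ezh1, and for Tet3 Med15 (0.982), Prdm15 and Ctdp1. The kidney mean behind the Dnmt3l values includes the second kidney library, with 3.50 CPM of Dnmt3l against 0.0306 to 0.220 CPM in the others.

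Neighbouring genes of the pathway were counted from lists chosen by function. All 15 H3K9 methylation partners were higher in thymus, where 39.9% of all genes were (median log2 fold 0.69, against 0.10 over all genes tested), along with 10 of 13 methyl-CpG readers and cofactors and all 16 proliferation genes. In brain all 16 proliferation genes were lower, where 35% of all genes were (median -3.35, against -0.17 over all genes), with 5 readers higher and 5 lower. Of 22 germline genes 16 passed the low-count filter and were called higher in ovary, but a gene that is near 0 elsewhere passes this filter through its ovary libraries alone, so the count is no support. Methyl donor enzymes gave 12 higher of 15 in kidney (31.4% of all genes; median 1.22, against -0.09 over all genes) and 9 higher and 5 lower in liver (28.5% and 35.7%; median 0.56, against -0.44). The 2-oxoglutarate and Tet cofactor list gave 10 of 12 higher in heart (28.5%; median 2.17, against -0.29), 10 of 12 in kidney (median 1.28) and 8 of 12 in liver (median 1.41).

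In the cultured lines, the maintenance genes were the most abundant members per kilobase. In WT B16OVA, Uhrf1 averaged 106 CPM per kb and Dnmt1 60.6, against 5.80 for Tet3, 5.42 for Dnmt3a, 2.04 for Dnmt3b, 1.68 for Tet2, 0.237 for Tet1 and 0.012 for Dnmt3l. Mean Dnmt1 differed little among WT lines, at 447 CPM in B16OVA, 411 in B16, 401 in MCA101OVA and 365 in MC38, and these 4 groups overlapped. Mean Uhrf1 was 453 CPM in B16OVA, 451 in B16, 220 in MC38 and 199 in MCA101OVA, with B16OVA and B16 overlapping and MC38 and MCA101OVA overlapping. The melanocytes had 66.4, 81.5, 69.2, 62.9 and 95.7 CPM of Dnmt1 and 17.8, 13.3, 13.8, 2.02 and 18.5 CPM of Uhrf1, below every WT library of the 4 lines in the runs compared. In the single WT libraries of run B176, Dnmt1 at 86.2 CPM in B16 and 90.6 CPM in MC38 lay within the melanocyte range, and Uhrf1 at 34.6 CPM in B16 and more in the others lay above it.

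**Figure D2:**
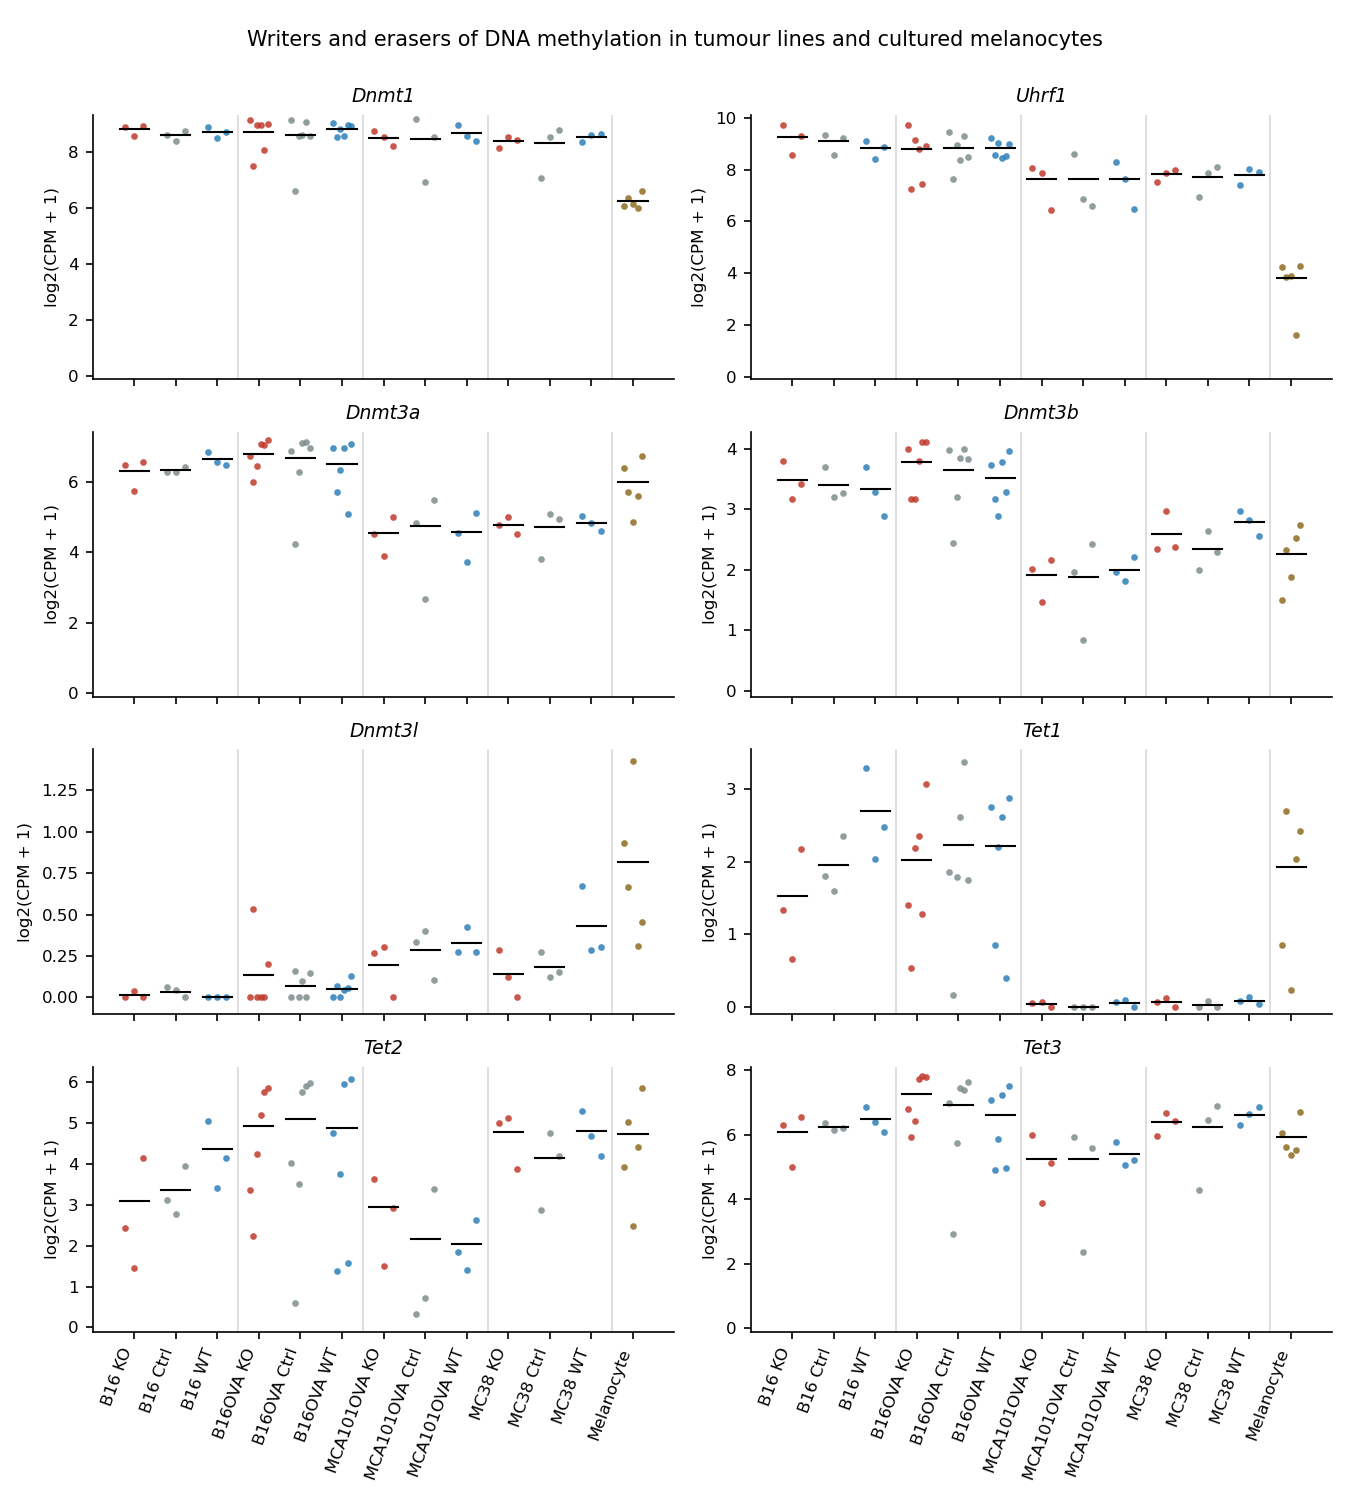
Level of each of the 8 genes by library in the 4 tumour lines and in melanocytes, as log2(CPM + 1) on the y axis. For each line, KO is red, Ctrl grey and WT blue, and melanocytes are brown. The 3 colours overlap within each line, Tet1 lies near 0 in MCA101OVA and MC38, and Dnmt1 and Uhrf1 are lower in melanocytes than in the WT libraries plotted, which leave out run B176.

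In B16OVA the long members Tet2, Tet3 and Dnmt3a moved with the length slope of the library. Over 11938 genes, 5 line libraries had a slope below -0.15: KO replicate 2 of B16, WT replicates 2 and 5 and Ctrl replicate 2 of B16OVA, and Ctrl replicate 2 of MCA101OVA. Within B16OVA, the 3 such libraries had 0.523 to 1.98 CPM of Tet2, against 3.70 to 66.9 CPM in the other 15. Tet3 was at 6.62 to 30.01 CPM against 52.8 to 226 CPM, and Dnmt3a at 17.7 to 51.3 CPM against 62.8 to 144 CPM, all without overlap. The long Tet1 overlapped, with 0.116 to 0.806 CPM in these 3 against 0.445 to 9.40 CPM. The shorter Uhrf1 overlapped too, with 199 to 380 CPM in these 3 against 152 to 842 CPM. In MCA101OVA the library of low slope was the lowest in the shorter Dnmt1, at 119 CPM against 291 to 572 CPM. It was also the lowest in Dnmt3b, at 0.776 CPM against 1.76 to 4.35 CPM. Run also went with the level of Tet2. Among B16OVA libraries of a higher slope, Tet2 was at 35.6 to 66.9 CPM in run D176 (8 libraries). In runs B253 and B262 (7 libraries) the gene was at 3.70 to 26.1 CPM. The slopes of these libraries did not overlap, at 0.365 to 0.418 in run D176 and -0.0687 to 0.316 in runs B253 and B262. Run and slope therefore cannot be told apart here. The cause of the slope was not tested, and values of Tet1, Tet2, Tet3 and Dnmt3a are therefore given with the library where it matters.

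**Figure D3:**
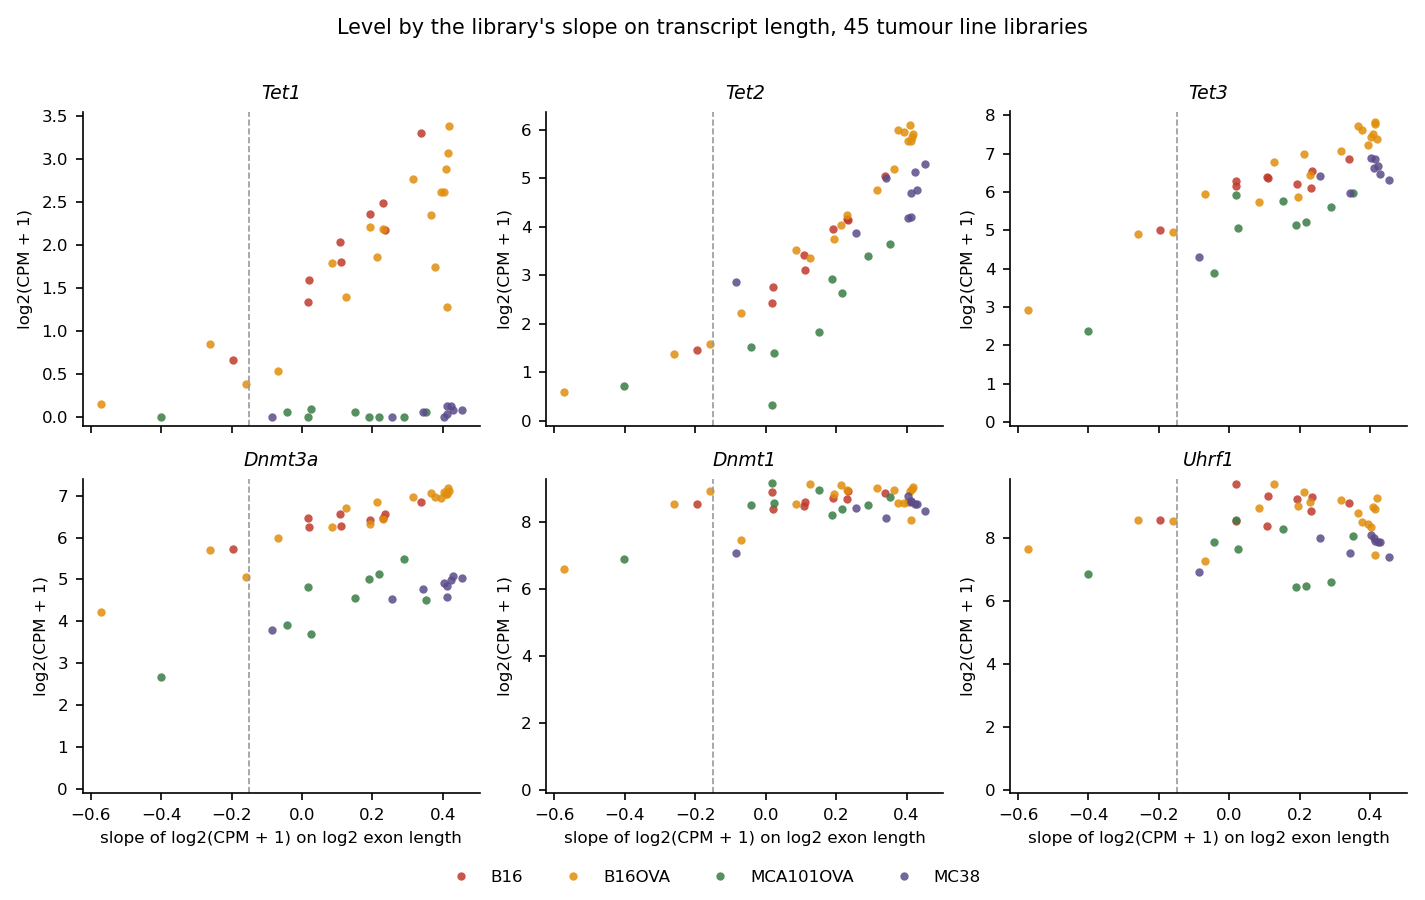
Level of 6 members, as log2(CPM + 1) on the y axis, against the length slope of each line library on the x axis, coloured by line, with the dashed line at a slope of -0.15. Tet2 and Tet3 fall towards low slopes within B16OVA, where the 3 libraries left of the line hold 0.523 to 1.98 CPM of Tet2, while Dnmt1 and Uhrf1 of these 3 overlap the rest.

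Against melanocytes, the nearest normal reference of B16OVA in the series, maintenance and Dnmt3b transcripts were higher and Dnmt3l was lower. Lysis and culture also differed between these groups per the labels, so they cannot be told apart from cell type in these differences. In the 3 WT B16OVA libraries of run D176, the run that also holds the melanocytes, Dnmt1 was at 379, 488 and 480 CPM and Uhrf1 at 346.1, 371 and 511 CPM. The melanocyte values given above did not overlap them. Dnmt1 was higher by 2.72 ± 0.24 on the log2 scale (SE, adjusted p = 2.64e-05, edgeR quasi-likelihood) and Uhrf1 by 5.05 ± 0.56 (adjusted p = 7.65e-05). Dnmt3b had 12.7, 8.71 and 14.6 CPM in B16OVA and 1.81, 3.99, 2.67, 4.72 and 5.66 CPM in melanocytes, again without overlap, and was higher by 1.76 ± 0.36 (adjusted p = 0.00295). Dnmt3l had 0.0330, 0.0389 and 0.0957 CPM in B16OVA, 5 counts in all, and 0.906, 0.588, 1.68, 0.240 and 0.372 CPM in melanocytes, 91 counts in all. It was 12.5-fold lower in B16OVA, with an interval of 5.17 to 39.5 that covers counting error only (exact binomial, 95%), and its adjusted p was 0.00616 (edgeR). Aire was at 0 CPM in the melanocytes. These 4 of 8 members were called, where 38.7% of all genes were.

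The other members overlapped between the 2 groups. Dnmt3a had 122, 32.6 and 132 CPM in B16OVA and 83.4, 51.02, 28.1, 47.4 and 104 CPM in melanocytes (log2 fold 0.59 ± 0.44, adjusted p = 0.322, edgeR). Tet1 was at 5.11, 0.311 and 6.34 CPM in B16OVA and 0.806, 5.49, 0.173, 3.11 and 4.38 CPM in melanocytes, Tet2 at 60.5, 1.98 and 66.9 CPM in B16OVA and 14.3, 31.7, 4.57, 20.2 and 57.1 CPM in melanocytes, and Tet3 at 149, 30.01 and 182 CPM in B16OVA and 65.3, 47.8, 40.5, 44.9 and 103 CPM in melanocytes. The middle B16OVA value of each was the library of low slope. Their log2 folds were 0.51 (adjusted p = 0.696), 0.74 (0.509) and 0.98 (0.101), and with the slope as covariate Dnmt3a (0.98, adjusted p = 0.0210), Tet2 (1.38, adjusted p = 7.05e-04) and Tet3 (1.25, adjusted p = 0.00422) passed as well.

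The melanocyte libraries were not alike in other cell markers: fibroblast markers summed to 17321, 2295, 844, 1237 and 158 CPM in replicates 1 to 5, leukocyte markers to 14.7 to 739 CPM and melanocyte markers to 12719 to 66415 CPM, and the part of these cells in the differences was not tested. Proliferation genes summed to 4431 to 6137 CPM in B16OVA and 265 to 481 CPM in melanocytes, and all 16 were higher (median log2 fold 4.27, against -0.03 over all genes tested). Among the readers and cofactors, 3 of 13 were higher and 2 lower: Hells, a chromatin remodeller needed for DNA methylation, rose by 3.89 (adjusted p = 2.80e-04, edgeR), its partner Cdca7 rose by 3.53 and Zbtb4 fell by 2.96. Of 13 base excision repair genes 8 were higher and 2 lower, led by Neil3 at 4.77, with Gadd45b at -3.45 and Gadd45g at -3.10. Methyl donor enzymes gave 6 higher and 1 lower of 13 tested, led by the serine hydroxymethyltransferase genes Shmt1 (3.24) and Shmt2 (2.27) and by Ahcy (2.23), the 2-oxoglutarate and Tet cofactor list 5 higher and 2 lower of 12, led by Sdhb (3.08) and Cxxc4 (-2.98), and the H3K9 partners 6 higher of 15, led by Suv39h2 (2.21). Of 6 tested germline genes, Rhox5 was higher (6.86) and Taf7l (-6.79) and Piwil2 (-4.21) lower. Since 38.7% of all genes were called in this comparison, the 5 of 13 readers and cofactors and the 6 of 15 H3K9 partners are near that share and say nothing particular to those lists.

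Between tumour lines, Tet1 was lower in MC38 and MCA101OVA than in B16OVA. WT MC38 had 0.0591, 0.0943 and 0.0292 CPM of Tet1, 6 counts in all, and WT B16OVA of the same run 362 counts, a level 69.0-fold lower in MC38 (31.4 to 189, counting error only; adjusted p = 0.00528, edgeR). WT MCA101OVA had 0.0465, 0.0683 and 0 CPM, 4 counts in all, and WT B16OVA of the same runs 5.77, 0.806 and 3.62 CPM, 386 counts, a level 101-fold lower in MCA101OVA (39.3 to 374; adjusted p = 3.95e-04). No MC38 or MCA101OVA library of the 3 runs exceeded 0.0943 CPM, whereas B16 libraries ranged from 0.583 to 8.83 CPM and B16OVA libraries from 0.116 to 9.40 CPM, so the lowest B16OVA library lay just above them. In run B176 the MC38 library was at 2.77 CPM, within the range of the melanoma lines.

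Dnmt3a was also lower outside the melanomas. It had 31.7, 27.5 and 23.0 CPM in WT MC38 and 122, 32.6 and 132 CPM in WT B16OVA of the same run, without overlap (log2 fold -1.86 ± 0.52, adjusted p = 0.0165, edgeR), but leaving out any 1 of 5 of these libraries gave an adjusted p between 0.0524 and 0.0650. In WT MCA101OVA it had 22.4, 12.1 and 33.8 CPM, against 124, 51.3 and 79.4 CPM in WT B16OVA of its runs (-1.75 ± 0.39, adjusted p = 0.00641). Dnmt3b had 2.91, 2.49 and 3.60 CPM in MCA101OVA and 12.2, 8.01 and 6.39 CPM in B16OVA (-1.43 ± 0.35, adjusted p = 0.0108), which became 0.0638 at most when 1 library was left out. In MC38 it had 6.82, 6.03 and 4.88 CPM, and its log2 fold of -1.15 missed the threshold (adjusted p = 0.0542). Dnmt3b passed there with DESeq2 (-1.08, adjusted p = 0.00899). In edgeR it passed with the 2 groups alone (-1.10, adjusted p = 0.0325) and with the slope as covariate (-1.35, adjusted p = 0.0259). Leaving out 1 library gave an adjusted p of at least 0.0638.

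Uhrf1 had 308.8, 199.6 and 88.7 CPM in MCA101OVA and 593, 380 and 517 CPM in B16OVA of its runs (-1.31 ± 0.35, adjusted p = 0.0170, edgeR), without overlap. In MC38 it had 166, 256 and 238 CPM, against 346.1, 371 and 511 CPM in B16OVA (-1.04, adjusted p = 0.1999), and these libraries did not overlap either. In a fit of these 2 groups alone Uhrf1 passed (-0.99, adjusted p = 0.0447, edgeR). Dnmt1 libraries overlapped in both comparisons, and its log2 fold was -0.48 in MC38 (95% interval -1.08 to 0.12, adjusted p = 0.202) and -0.07 in MCA101OVA (-0.55 to 0.40, adjusted p = 0.820). Tet2 and Tet3 were not called in either line without the slope covariate, with log2 folds of -0.70 and -0.34 in MC38 and -1.66 and -0.59 in MCA101OVA. With the slope as covariate, Tet2 passed in MC38 (-1.56, adjusted p = 9.82e-04, edgeR) and in MCA101OVA (-1.76, adjusted p = 2.95e-04). Tet3 then passed in MCA101OVA alone (-0.62, adjusted p = 0.0281). Without that covariate, 2 of 8 members were called in MC38 (33.7% of all genes) and 4 of 7 in MCA101OVA (35.9%), where Dnmt3l was filtered out for low counts.

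**Figure D4:**
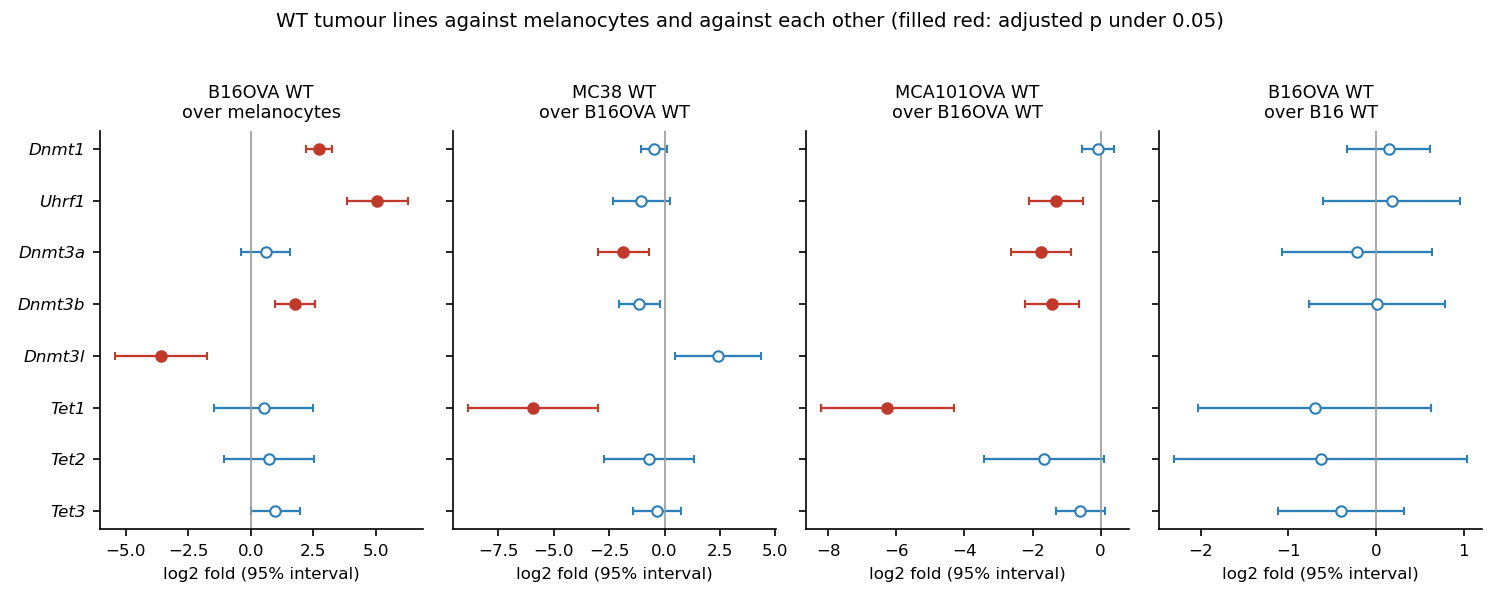
The log2 fold of each member in 4 WT comparisons, with bars for the 95% interval of the edgeR fit and filled red points where the adjusted p is under 0.05. Uhrf1 at 5.05 and Dnmt1 at 2.72 are called against melanocytes, Tet1 at -5.94 in MC38 and -6.26 in MCA101OVA against B16OVA, and no member between B16OVA and B16.

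WT B16OVA and WT B16 did not differ beyond the spread in any of the 7 tested members, where 0.0068% of all genes were called. The intervals were narrowest for Dnmt1 (log2 fold 0.14, 95% interval -0.33 to 0.62) and widest for Tet2 (-0.63, -2.30 to 1.04). In the other lines some genes of the lists are named here, without a count for each list. Neil2, a DNA glycosylase gene of base excision repair, was at 0 CPM in WT MC38 and 0.0215 CPM in WT MCA101OVA, against 16.03 and 12.1 CPM in WT B16OVA of the matching runs. Zfp57, which protects methylation at imprinted loci, was at 79.8 CPM in MC38 against 6.96 CPM in B16OVA (log2 fold 3.44, adjusted p = 0.00148, edgeR) and at 49.1 CPM in MCA101OVA against 5.37 CPM in B16OVA (3.39, adjusted p = 6.16e-04). Suv39h2, an H3K9 methyltransferase gene, rose by 2.33 and 2.36. Of the 16 proliferation genes 2 were lower in MC38 and 1 in MCA101OVA, Mcm2 in both (-1.44 and -1.23). Of all genes, 33.7% were called in either direction in MC38 and 35.9% in MCA101OVA. With such shares the genes named say nothing particular to their lists.

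Setdb1 KO cells were compared with Ctrl cells of the same line. Setdb1 itself was at 11.7 to 20.6 CPM in KO and 59.5 to 65.1 CPM in Ctrl of B16, at 15.6 to 49.9 CPM in KO and 21.1 to 99.4 CPM in Ctrl of B16OVA, at 20.4 to 36.7 CPM in KO and 45.7 to 95.7 CPM in Ctrl of MCA101OVA, and at 60.05 to 85.3 CPM in KO and 54.9 to 125 CPM in Ctrl of MC38. KO and Ctrl overlapped in B16OVA and in MC38, and in MC38 the gene was not called. The Setdb1 level therefore does not tell KO from Ctrl in MC38, and the loss of Setdb1 there is taken from the label. The 2 groups did differ in other genes: 78 were called in MC38, all 78 higher in KO, against 0 between Ctrl and WT (edgeR).

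No member was called in any line. Of 32 tests of a member in a line, 0 passed at an adjusted p under 0.05 and 0 had an unadjusted p under 0.05 (edgeR quasi-likelihood), DESeq2 called 0 as well, and the lowest adjusted p was 0.893. Of all genes, B16 had 0.69% called, B16OVA 1.05%, MCA101OVA 0.345% and MC38 0.464%. KO and Ctrl libraries overlapped in each of the 32. These ranges and the intervals given for KO are not paired by library-number set, and a fit with a block for the sets called 0 as well. An uncalled gene may still differ by an amount within its interval, and these differ by gene.

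Dnmt1 had 474, 371 and 484 CPM in KO and 389, 334.1 and 421 CPM in Ctrl of B16, and a lowest, median and highest value of 177, 494 and 563 CPM in KO and 94.8, 383 and 551 CPM in Ctrl of B16OVA. It had 425, 366 and 291 CPM in KO and 572, 119 and 364 CPM in Ctrl of MCA101OVA, and 277, 368 and 338.4 CPM in KO and 133, 370 and 435 CPM in Ctrl of MC38. The lowest Ctrl value in B16OVA and MCA101OVA was a library of low slope, and that in MC38 was Ctrl replicate 1, whose slope was -0.0856 against 0.403 and 0.429 in the other Ctrl libraries. The log2 folds of KO over Ctrl were 0.24, 0.05, 0.05 and 0.01 in B16, B16OVA, MCA101OVA and MC38, and the 95% interval for B16OVA was -0.47 to 0.58.

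Uhrf1 had 838, 379 and 629 CPM in KO and 651, 375 and 599 CPM in Ctrl of B16, and 152, 465.5 and 842 CPM as lowest, median and highest in KO and 199, 428 and 705 CPM in Ctrl of B16OVA. It had 268, 232 and 86.3 CPM in KO and 383, 116 and 95.3 CPM in Ctrl of MCA101OVA, and 184, 234 and 253.2 CPM in KO and 120, 233 and 273 CPM in Ctrl of MC38. In MCA101OVA both groups spread over a range larger than any difference between them. The log2 folds were 0.16, -0.17, 0.01 and 0.04 in B16, B16OVA, MCA101OVA and MC38, with an interval of -0.78 to 0.43 in B16OVA.

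Dnmt3a had 88.0, 51.9 and 92.9 CPM in KO and 76.5, 75.9 and 84.8 CPM in Ctrl of B16, 62.8, 117 and 144 CPM as lowest, median and highest in KO and 17.7, 120 and 138 CPM in Ctrl of B16OVA. The log2 folds were -0.02, 0.09, -0.21 and 0.01 in B16, B16OVA, MCA101OVA and MC38. Dnmt3b had the narrowest intervals of the 8, with log2 folds of 0.12, 0.05, -0.02 and 0.24 and an interval of -0.39 to 0.49 in B16OVA, where KO had a median of 13.9 CPM and Ctrl 13.3 CPM. Dnmt3l stayed at or below 0.445 CPM in every KO and Ctrl library.

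Tet1 was present in B16 and B16OVA, with 1.52, 0.583 and 3.52 CPM in KO and 2.47, 2.01 and 4.11 CPM in Ctrl of B16 (log2 fold -0.60, 95% interval -2.26 to 1.06) and a median of 2.59 CPM in KO and 2.54 CPM in Ctrl of B16OVA (-0.22, -1.40 to 0.96). It was at most 0.0908 CPM in KO and Ctrl libraries of MCA101OVA and MC38. Tet2 had 11.47, 1.86 and 6.63 CPM in KO and 0.263, 0.639 and 9.54 CPM in Ctrl of MCA101OVA (log2 fold 0.76, -1.25 to 2.77), and 31.0, 34.1 and 13.7 CPM in KO and 6.29, 26.2 and 17.3 CPM in Ctrl of MC38 (0.61, -1.31 to 2.53). In MCA101OVA 1 Ctrl library lay between the KO values, and the log2 fold was 3.50 without it (Ctrl replicate 3, adjusted p = 0.115, edgeR) and 0.055 without Ctrl replicate 1. These intervals are the widest among the members above 1 CPM and do not exclude a 2-fold change in either direction. Tet3 had 109, 60.2, 85.3, 211, 226 and 219 CPM in KO replicates 1 to 6 and 125, 6.62, 52.8, 172, 167 and 197 CPM in Ctrl replicates 1 to 6 of B16OVA, with the low Ctrl value in a library of low slope (0.41, -0.41 to 1.23).

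**Figure D5:**
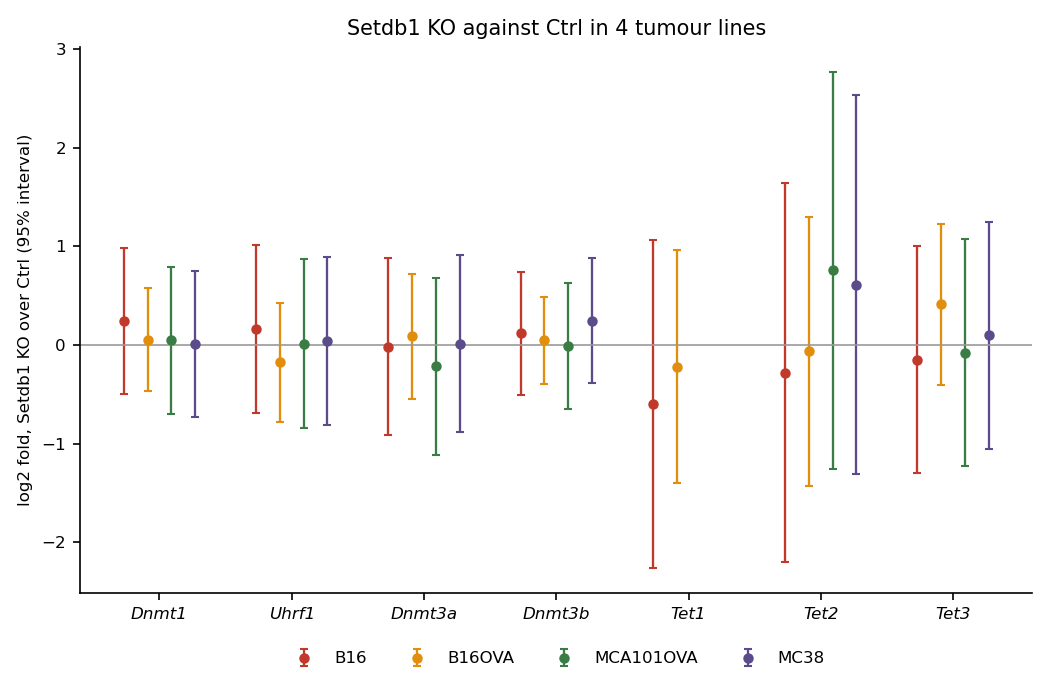
The log2 fold of Setdb1 KO over Ctrl for 7 members in the 4 lines, with bars for the 95% interval of the edgeR fit. Every interval crosses 0, Dnmt3b has the narrowest bars and Tet2 the widest of those above 1 CPM, and Dnmt3l, at most 0.445 CPM, and Tet1 in MCA101OVA and MC38 are not shown.

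The KO effect was also compared between lines: B16, MCA101OVA and MC38 against B16OVA. Of 24 such tests 0 were called and 0 had an unadjusted p under 0.05 (edgeR), where 0%, 0.101% and 0.262% of all genes were called. Ctrl and WT cells differed in none of 32 tests, with 0 at an unadjusted p under 0.05, and no gene of the 16809 was called in that comparison in any line. WT cells in place of Ctrl cells gave no member call for KO either.

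Genes of the pathway around the members were mostly without a call too. No methyl-CpG reader or cofactor, base excision repair, methyl donor, 2-oxoglutarate or proliferation gene was called in any line. Among 15 H3K9 partners, Setdb1 itself fell by 1.85 in B16, 1.18 in B16OVA and 1.40 in MCA101OVA, and Atf7ip, which binds and stabilises Setdb1, rose by 1.44 in B16OVA (227 CPM in KO and 83.9 CPM in Ctrl, adjusted p = 6.35e-04, edgeR). The germline list, genes whose promoters are methylated in somatic cells, was the exception: of 22, 4 were called higher in B16, where 0.66% of all genes were called higher, 3 in B16OVA (0.994%), 2 in MCA101OVA (0.339%) and 2 in MC38 (0.464%). Of the 22, 8 passed the low-count filter, and a gene near 0 in Ctrl passes it through its KO libraries alone, so no share or median of those tested is given as support. Tdrd9, an RNA helicase gene of the germline piRNA pathway, was called in all 4 lines, with 8.54 CPM in KO and 0.207 CPM in Ctrl of B16, 4.26 CPM in KO and 0.203 CPM in Ctrl of B16OVA, 4.08 CPM in KO and 0.0279 CPM in Ctrl of MCA101OVA, and 1.76 CPM in KO and 0.0828 CPM in Ctrl of MC38. On the log2 scale Tex19.1 rose by 6.45 in MCA101OVA, 5.02 in B16OVA and 4.26 in B16, Dppa4 by 6.02 in B16, 4.32 in B16OVA and 2.87 in MC38, and Rhox5 by 3.96 in B16. Germline genes were known from earlier results of these data to rise, so this count is a description.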

How the data were processed

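Gene counts were deposited by the authors as whole-number counts per Ensembl gene. Libraries were made with a stranded TruSeq poly(A) kit, per the labels' protocols, and Trim Galore, FastQC, STAR and HTSeq with mm10 are named in the submitters' processing notes. Not given in the sources used here are the versions, the annotation, the strand setting and the treatment of reads with several positions. A second deposited table, of fractions, was not used. Symbols came from GENCODE vM21 for 53274 of 53379 identifiers, and promoter sequences from RefSeq (GRCm38.p6).

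Counts were fitted in R 4.3.3 with edgeR 4.0.16 (limma 3.58.1): TMM, filterByExpr by group, quasi-likelihood test, Benjamini-Hochberg adjustment over all genes, called at an adjusted p under 0.05. The KO and Ctrl fit held 45 line libraries with a term per group and run (16809 genes). WT fits held libraries that share runs: 11 with melanocytes (16020 genes) and 9 with MCA101OVA and B16 (14699 genes). The tissue fit held 48 libraries with tissue and run (26242 genes), each tissue against the mean of the other 11. The steps were tested on simulated counts. The simulation changed well-counted genes only, had no run or length slope effect and used a smaller spread than these libraries show. It therefore does not measure the power for the members. Alternatives were RLE scaling, other filters, DESeq2 1.42.0, no run term, a replicate block, the length slope as covariate, 2 groups alone and leaving out libraries, plus 4 added after seeing the data.

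Library-number sets were inferred from the order of the numbers in the library names, since the labels give no replicate number. Deviations of libraries of the same set and line correlated above 0.1 in 9 of 9 pairs in B16, MCA101OVA and MC38, and in 15 of 18 in B16OVA (lowest -0.55).

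Named genes were the 8 members, up to 3 called genes of each list with the largest fold, and the 3 genes most like each member; Rhox5 in B16, Aire, Star, Cyp11b1 and Chga were named after their values were seen. Members and lists were chosen with earlier results of these data known. Intervals on counts cover counting error only.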

Additional observations from a re-analysis of the deposited data

Results flagged for a closer look

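In groups of 4 to 10 libraries, 6 of 128 member groups held a library whose gap to its nearest neighbour exceeded the 95% critical value of Dixon's ratio, and chance gives about 1 in 20. Dnmt1 was at 32.8 CPM in heart replicate 3, with 22.1 to 23.4 CPM in the other heart libraries. Dnmt3b was at 6.83 CPM in skin replicate 1, with 6.40 to 6.46 CPM in the others. The other 4 concern Dnmt3l, at 3.50 CPM in kidney replicate 2 (0.0306 to 0.220 CPM in the others), 0.445 CPM in KO replicate 2 of B16OVA (0 to 0.148 CPM), 0.166 CPM in spleen replicate 1 (0.0719 to 0.0853 CPM) and 0.0158 CPM in liver replicate 4 (0 CPM in the others).

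The single WT libraries of run B176 entered no comparison, and 5 of their values lay well above the Ctrl and WT libraries of the same or the nearest line in the other runs, MC38 for MC38-GFP and MCA101OVA for MCA101. Dnmt3l was at 28.7 CPM in MC38 and 19.5 CPM in MC38-GFP, against 0.0904 to 0.591 CPM in the MC38 libraries of run D176, and at 1.91 CPM in B16, against 0 to 0.0426 CPM. Tet1 was at 2.77 CPM in MC38, against 0 to 0.0943 CPM. Tet2 was at 29.7 CPM in MCA101, against 0.263 to 9.54 CPM in MCA101OVA libraries. Each of these is 1 library without a replicate, and the difference was not tested.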

How the results depend on the processing

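No member was called for KO against Ctrl in any of the 604 alternative values, where the lowest adjusted p was 0.115 (Tet2 in MCA101OVA), with 0 calls under the replicate block as well. The block moved 1 call between lines: Tet2 in MCA101OVA against B16OVA had a log2 fold of -1.55 and passed at an adjusted p of 0.0483 (edgeR). Against melanocytes, 4 members were called and 7 with the length slope as covariate. MC38 against B16OVA gave 2 calls, 4 with DESeq2 and 5 with the slope covariate, and 1 to 2 when 1 library was left out. MCA101OVA against B16OVA gave 4, with 6 under the slope covariate or with no low-count filter, 3 with the 2 groups alone, and 3 to 6 when 1 library was left out. In tissues, 69 of 96 pairs were called, and 63 to 71 over the alternatives. With the slope covariate the sign turned for Dnmt1 in brain (-0.71), Dnmt3a in brain (-0.055), ovary (-0.076) and liver (0.12), Tet2 in liver (0.90) and stomach (0.27) and Tet3 in lung (-0.23), liver (0.25) and stomach (0.27). Slope and tissue are confounded there. Without kidney replicate 2 the log2 fold of Dnmt3l in kidney was -0.31, and leaving out each library-number set in turn gave -0.44 to 2.94. Other single values numbered 2997 that stayed the same, which include group levels and tests uncalled in both settings. A call was gained in 38 tests and lost in 38. A further 55 values are group levels that moved by more than 1 SD on TMM-scaled CPM. Depth limits Dnmt3l in the lines and Tet1 in MC38 and MCA101OVA, which rest on a few counts.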

Other observations

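The single MC38 library of run B176 differed from the MC38 WT libraries of run D176 in several members. Dnmt3l had 1264 counts there and 35 counts in the 3 libraries of run D176, an 81.9-fold higher level (58.6 to 118, counting error only). It had 90.6 CPM of Dnmt1 and 89.2 CPM of Uhrf1, with 321.7, 382 and 390 CPM of Dnmt1 and 166, 256 and 238 CPM of Uhrf1 in the D176 libraries. The B16 library of run B176 had 86.2 CPM of Dnmt1 and 34.6 CPM of Uhrf1, and the proliferation list summed to 1159 CPM in it and 2717 CPM in the MC38 library of that run. Among the libraries of that run, Tet1 was at 17.1 CPM in B16-OVA and 6.97 CPM in B16. Aire, which overlaps Dnmt3l on the other strand, was at 55.6 CPM in B16 and 43.1 CPM in B16-OVA. Library, run and culture cannot be told apart with 1 library each.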
